A study of Mus musculus with 8 samples.

Results

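The genes described here are the enzymes and transporters of glycolysis, with their regulators, and a set of genes known to respond to low oxygen. They were taken as a list of 37 symbols, matched to Ensembl identifiers through the GENCODE annotation of the mouse build GRCm38, out of 54232 genes in the count tables. All 37 were found, and all 37 had enough counts to be tested in both experiments. The cells were E14, an embryonic stem cell line of the mouse whose strain the labels write as 12910la, grown on gelatin in serum medium (15% FBS) with 10 ng/ml of the cytokine LIF. The first experiment compared control cells with cells whose Ssrp1, a subunit of the histone chaperone FACT, was knocked out with Cas9 and a guide RNA, and RNA was sequenced from each. The second compared control cells with cells given an shRNA against Usp7, a deubiquitinase, in the pSuper puro plasmid, at 1000 ng of plasmid, with puromycin at 1 ug/ml from 24 h on and for 3 days. There were 2 libraries in each of 4 groups, a control and a treated group per experiment. The labels do not say whether the knockout libraries come from 1 clone, whether the Usp7 controls received an empty plasmid and puromycin, or whether replicates were separate cultures, so a p-value here speaks only of the spread among these libraries, which may be technical.

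Glycolysis takes glucose into the cell through transporters, traps it as a phosphate through hexokinase and splits it into pyruvate, which lactate dehydrogenase can reduce to lactate for export. Hif1a is the oxygen-regulated subunit of a transcription factor: prolyl hydroxylases of the Egln family mark it for destruction when oxygen is present, and in low oxygen it accumulates and binds a short element in genes for glucose uptake, glycolysis, blood vessel growth, removal of mitochondria and acid balance. Embryonic stem cells in serum are known for a high rate of glycolysis even with oxygen at hand. The abundance of Hif1a protein is set mainly by its breakdown, so its mRNA level measured here does not report its activity.

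Library totals ran from 15879056 to 18361130 counts. Usp7 RNA was 386 and 381 CPM (counts scaled to library size) in its controls and 117 and 128 CPM after knockdown, a log2 change of -1.64 (edgeR quasi-likelihood test, adjusted p = 0.00124). Ssrp1 RNA was 423 and 460.0 CPM in the controls against 399.6 and 119.7 CPM in the knockout libraries (log2 change -0.77, adjusted p = 0.411). The library labelled knockout replicate 1 thus held nearly as much Ssrp1 RNA as the controls, and since an edited gene can still be transcribed, this level does not check the label. All 10 embryonic stem cell markers were detected in every library, with summed levels of 10613 and 8593 CPM in the Ssrp1 controls, 8337 and 8037 CPM in the knockout, 7697 and 6531 CPM in the Usp7 controls and 5753 and 5377 CPM after knockdown, while 8 fibroblast markers summed to 17.5 to 55.8 CPM. Summed levels of 6 2-cell-like genes were 36.1 and 104 CPM in the Ssrp1 controls against 371 and 943 CPM in the knockout, and 3.18 and 3.23 CPM in the Usp7 controls against 22.9 and 19.2 CPM after knockdown. Of these, edgeR called 6 of 6 tested higher in the knockout, against 3.39% of all genes. In the knockdown it called 4 of 4 tested higher, against 2.36%. Primitive endoderm markers summed to 50.7 and 58.8 CPM in the Ssrp1 controls and 99.7 and 118 CPM in the knockout. All 7 tested in the knockout were above 0 (median log2 change 1.94), and 1 was called higher, against 3.39% of all genes. The primitive endoderm markers summed to 73.2 and 88.7 CPM in the Usp7 controls and 78.8 and 91.2 CPM after knockdown. Mesoderm markers summed to 4.40 and 6.97 CPM in the Ssrp1 controls and 15.5 and 13.9 CPM in the knockout, where all 4 tested were above 0. In the knockdown 9 of the 10 stem cell markers had log2 changes below 0, with a median of -0.35, 8 with both knockdown libraries below both controls, and none passed the test (edgeR, 4 lower at an unadjusted p under 0.05; the background shares are given below). All 6 mesoderm markers were above 0 there (median 0.69, sums of 12.4 and 14.4 against 19.1 and 22.9 CPM). Neural markers summed to 35.9 and 36.5 CPM in the Usp7 controls and 57.0 and 61.4 CPM after knockdown. Of the 4 neural markers tested there, 2 were above 0 and 2 below, and 1 was called higher, against 2.36% of all genes. In the knockout 3 neural markers were tested, 2 below 0 and 1 above (median -0.80), and none was called. Their part in the results below was not tested, and in bulk RNA fewer cells of a type and less RNA per cell cannot be told apart.

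The element bound by Hif1 has the core ACGTG or GCGTG, and the sequence upstream of 4 members is shown, chosen with the values known, because these genes lay lower together in the Usp7 knockdown: Ldha, which makes lactate, and Ankrd37, Bnip3 and Vegfa, textbook Hif1 targets. Sequences are from RefSeq on GRCm38.p6, read 5′ to 3′ on the gene's strand and ending at the annotated start or before the first exon base, with every ACGTG or GCGTG on either strand in capitals (on the other strand these read CACGT and CACGC).
Ldha, chr7:46845554-46845803 (+): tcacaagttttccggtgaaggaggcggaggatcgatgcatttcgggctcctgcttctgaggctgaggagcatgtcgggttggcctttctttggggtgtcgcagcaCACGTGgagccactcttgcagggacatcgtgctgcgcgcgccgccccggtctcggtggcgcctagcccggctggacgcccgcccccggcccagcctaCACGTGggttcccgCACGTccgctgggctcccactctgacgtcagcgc
Ankrd37, chr8:45999868-46000100 (-): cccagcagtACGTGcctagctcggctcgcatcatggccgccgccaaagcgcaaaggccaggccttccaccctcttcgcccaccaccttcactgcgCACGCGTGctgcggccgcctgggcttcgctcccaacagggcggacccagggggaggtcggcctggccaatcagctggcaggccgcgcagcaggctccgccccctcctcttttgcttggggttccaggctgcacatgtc
Bnip3, chr7:138909520-138909756 (-): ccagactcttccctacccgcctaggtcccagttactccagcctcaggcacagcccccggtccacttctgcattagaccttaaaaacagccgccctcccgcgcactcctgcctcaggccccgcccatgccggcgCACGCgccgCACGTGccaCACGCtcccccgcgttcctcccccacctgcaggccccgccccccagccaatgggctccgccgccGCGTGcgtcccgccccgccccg
Vegfa, chr17:46032378-46032627 (-): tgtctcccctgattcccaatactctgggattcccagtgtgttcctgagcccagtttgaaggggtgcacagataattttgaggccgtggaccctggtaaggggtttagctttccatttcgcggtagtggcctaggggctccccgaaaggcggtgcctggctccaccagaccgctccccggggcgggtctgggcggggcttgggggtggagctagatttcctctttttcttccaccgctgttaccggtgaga

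The Ldha stretch held 5 ACGTG matches, counted over both strands, and the window of a second Ldha start, not printed, held 0 ACGTG and 1 GCGTG matches. The Bnip3 stretch held 2 ACGTG and 3 GCGTG matches, the Ankrd37 stretch 1 ACGTG and 2 GCGTG matches, and the Vegfa stretch none of either core. The window of a second Vegfa start, not printed because it lies partly in an exon, held 1 ACGTG and 1 GCGTG matches. Matches did not follow the change in every member. Each of the 2 windows of Aldoc, called lower in the knockdown, held 0 ACGTG and 1 GCGTG matches. Those of Gpi1 and Tpi1, also measured lower there, held 0 of either core. The window of Hif1a, which was not lower, held 3 ACGTG matches. A link between matches and change was not tested. Windows of 250 bases upstream of the start were held for 34 of the 37 genes, 52 windows in all, since some genes have several starts. ACGTG was present in 48.1% of these windows, against 16.6% of all 32851 windows in the table and 21.1% of the 14334 windows of genes tested in the Usp7 experiment. GCGTG was present in 50% of the members' windows, 28.2% of all windows and 43.5% of the windows of tested genes. The palindrome CACGTG, which many other factors recognise and which holds ACGTG on both strands, was in 9.62% of the members' windows, 6.02% of all and 8.24% of those of tested genes. These are counts of letters: a match is not a bound site, windows of 1 gene are not independent, and a window without a match says nothing about sites elsewhere. The list was also made up in part of known Hif1 targets. A higher share of this element among them was therefore likely beforehand and is not a result of either experiment.

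Levels per exon length differed widely among the 37 genes, with the main glycolytic enzymes at the top and most Hif1 targets far below them. On the TPM scale (which divides by exon length and so allows genes to be compared) Gapdh, the dehydrogenase at the middle of the pathway, had 1575 to 4665 TPM over the 8 libraries. Eno1, the main enolase, had 846 to 2879 TPM. Pkm, the last enzyme, which makes pyruvate, had 1134 to 3264 TPM. Ldha had 892 to 2714 TPM, Aldoa, the main aldolase, 1090.2 to 2576 TPM, and Pgk1, the first enzyme of the pathway to make ATP, 803 to 2619.6 TPM. These 6 ranges overlapped, so no order among them is given. At the other end, Car9, a membrane carbonic anhydrase and Hif1 target, had 1.08 to 3.97 TPM, and Pfkfb4, a maker of the sugar phosphate that activates phosphofructokinase, had 1.70 to 3.95 TPM. The 15 enzymes that lead from glucose to pyruvate summed to 17393 and 18953 TPM in the Ssrp1 controls, 7654 and 14575 TPM in the knockout, 15796 and 17537 TPM in the Usp7 controls and 13451 and 10949 TPM in the knockdown. In both experiments every treated library lay below both of its controls in this sum. Gapdh shares sequence with 111 annotated copies in the tables, whose counts came to 35.3% to 46.0% of its own, and Eno1 with 5 copies (18.3% to 24.2%, chiefly Eno1b). How reads that map to several places were counted is not given in the sources used here, so the levels of these 2 genes are uncertain.

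**Figure D1:**
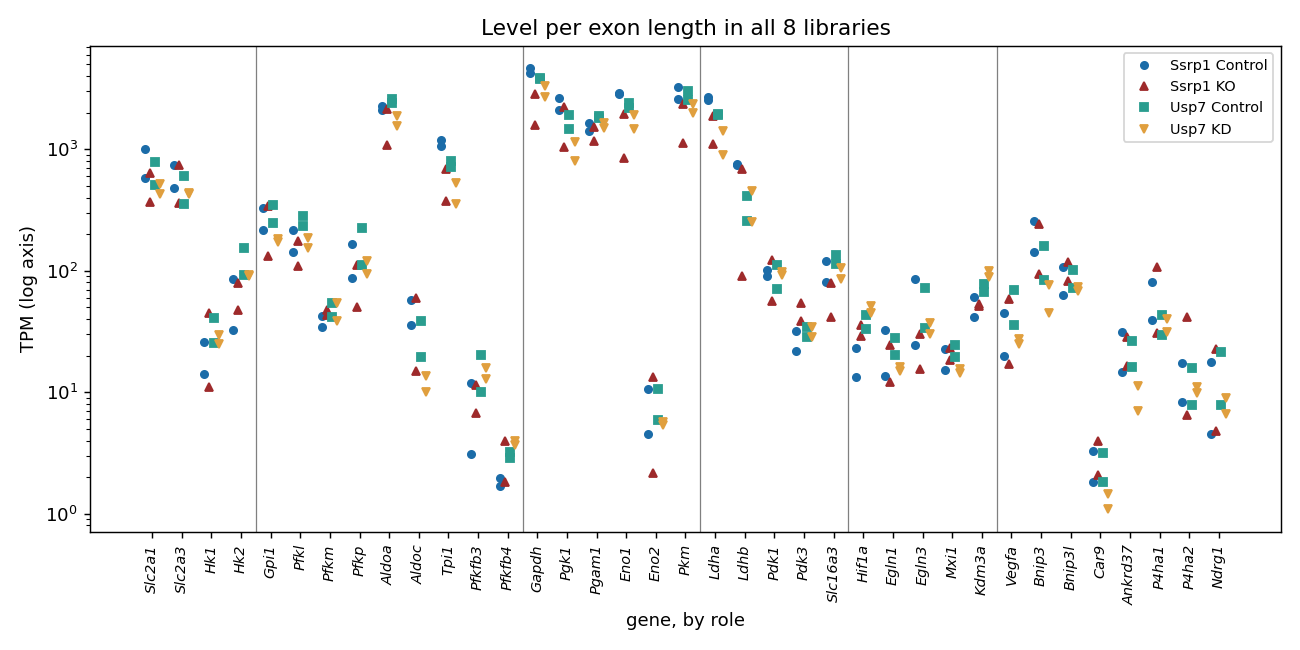
Level of each of the 37 genes in TPM on a log axis, 1 point per library, coloured by group, with the genes ordered by role. Gapdh, Eno1, Pkm, Ldha, Aldoa and Pgk1 lie near the top, and Car9 and Pfkfb4 at the bottom.

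The shares of related genes describe how RNA was split among the forms of each enzyme or transporter, and protein was not measured. Of the glucose transporter RNA on the TPM scale, Slc2a3 made up 43.8% ± 1.73 (SD, n = 2) in the Ssrp1 controls and 51.7% ± 2.85 in the knockout, and 42.4% ± 1.58 in the Usp7 controls and 47.7% ± 2.91 in the knockdown, the rest being Slc2a1. Hk2 made up 81.3% and 63.9% of the 2 hexokinases in the knockout libraries, and 69.5% to 78.8% in the other libraries. Aldoc, the aldolase best known from brain, made up 2.07% of the 2 aldolases in the Ssrp1 controls and 2.04% in the knockout, and 1.14% ± 0.462 in the Usp7 controls and 0.683% ± 0.0586 in the knockdown. Pfkl made up 52.5% to 55.3% of the 3 phosphofructokinases in the group means, with 60.5% and 50.0% in the Usp7 controls. Ldhb, the form of lactate dehydrogenase that favours pyruvate, had the widest spread between knockout libraries: it made up 22.1% ± 0.964 of Ldha plus Ldhb in the Ssrp1 controls but 7.61% and 26.9% in the 2 knockout libraries, and 14.8% ± 4.37 in the Usp7 controls and 23.3% ± 1.70 in the knockdown. No share was tested.

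In the Usp7 knockdown nearly all of these genes were measured below their controls. Log2 changes were below 0 for 34 of 37 genes, against 51.6% of all genes tested, with a median of -0.55 against -0.017 over all genes. The exceptions were Pfkfb4, Hif1a and Kdm3a. Aldoc and Vegfa, the blood vessel growth factor, fell by the test (2 of 37 called lower, against 0.628% of the 15915 genes tested), and no member rose, against 2.36%. At an unadjusted p under 0.05, 19 were lower, against 7.18% of all genes, and 0 were higher, against 9.52%. Both knockdown libraries lay below both controls for 26 of the 37 genes, against 23.4% of all genes, above both for 3, against 24.6%, and overlapped them for 8. DESeq2 called 12 lower: Aldoa, Aldoc, Ankrd37, Bnip3, Egln1, Gpi1, Ldha, Mxi1, Pfkl, Pgk1, Tpi1 and Vegfa. DESeq2 ran on 28266 genes, and on that unfiltered set edgeR called 0, so tool, filter and scaling changed together. By edgeR with the filter the count also moved when 1 library was left out, as did the calls over all genes. The median of the 37 genes was -0.58 without control replicate 1 and -0.38 without control replicate 2. It was -0.69 without knockdown replicate 1 and -0.49 without knockdown replicate 2.

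**Figure D2:**
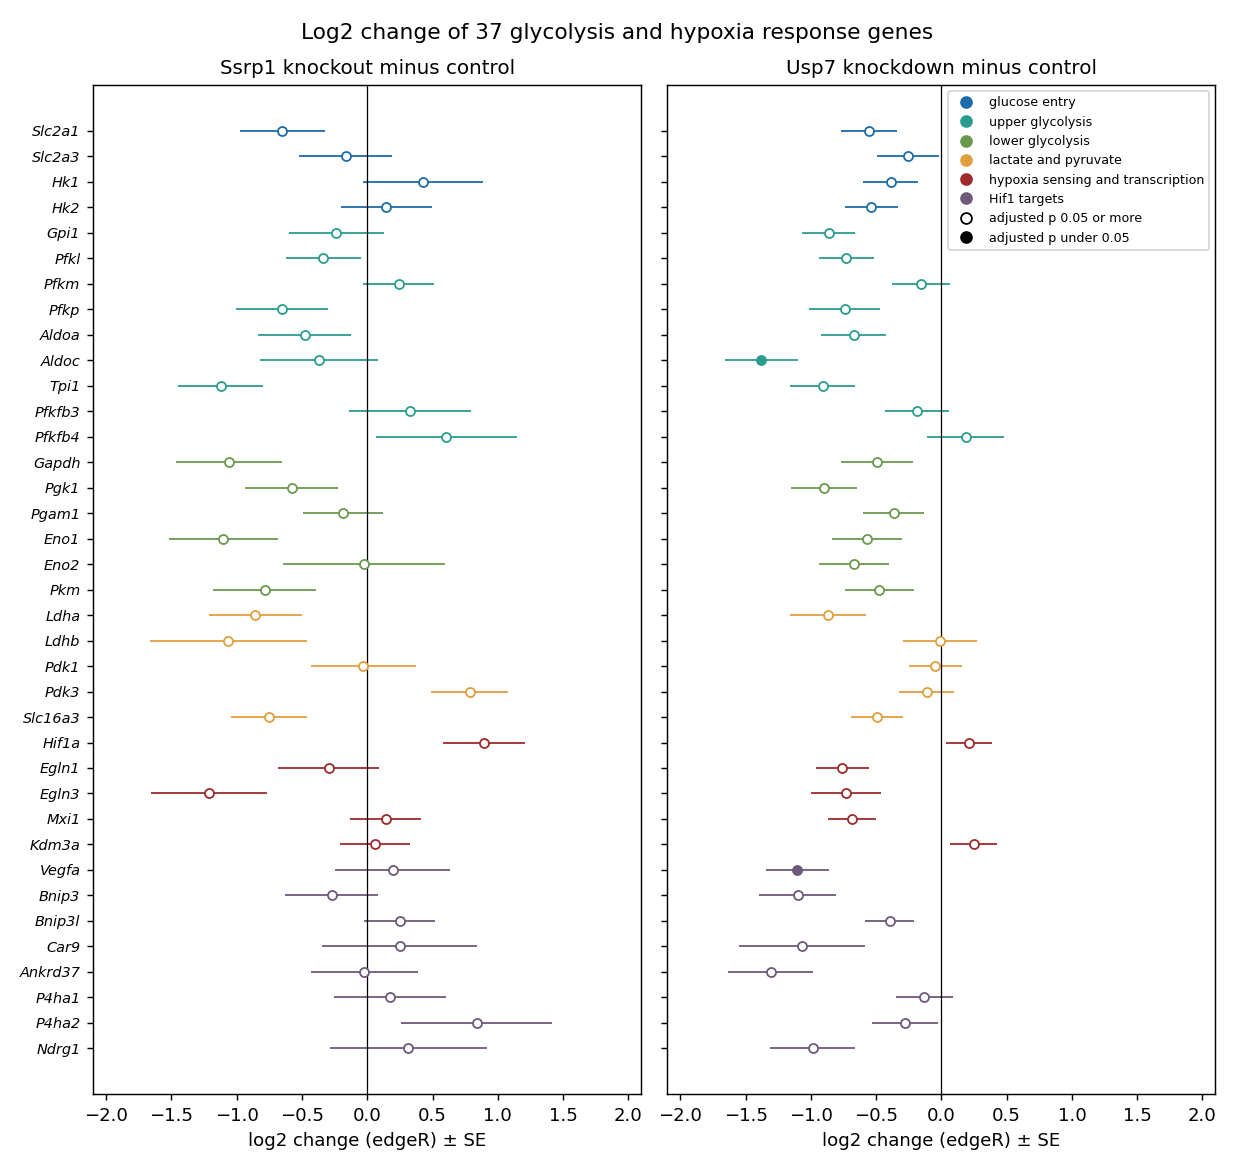
Log2 change with its standard error (edgeR) for each gene in the Ssrp1 knockout and in the Usp7 knockdown, by role; filled points have an adjusted p under 0.05. In the knockdown 34 of 37 points lie below 0 and those of Aldoc and Vegfa are filled; in the knockout 22 of 37 lie below 0 and none is filled.

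All 4 genes of glucose entry were measured below control in the knockdown, and none passed the test. Slc2a1, the widely expressed glucose transporter, had 689 and 875 CPM in the controls against 503 and 564 CPM in the knockdown libraries (log2 change -0.55, SE 0.22, adjusted p = 0.225). Both knockdown libraries lay below both controls. Slc2a3, a transporter with high affinity for glucose, had 1001 and 1393 CPM in the controls against 1030.0 and 978 CPM in the knockdown (log2 change -0.25, adjusted p = 0.638), and its groups overlapped. The hexokinases Hk1 and Hk2 had mean levels of 97.9 ± 18.6 CPM (SD, n = 2) and 252 ± 53.2 CPM in the controls against 74.8 ± 13.2 CPM and 174 ± 7.71 CPM in the knockdown, with no overlap between the libraries of either gene.

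Of the 9 genes of upper glycolysis, from glucose phosphate to the split of the sugar, 1 fell, and both knockdown libraries lay below both controls for 6. Aldoc (ENSMUSG00000017390, chr11:78322968-78327781 on GRCm38) had 25.0 and 39.6 CPM in the controls against 14.9 and 9.99 CPM in the knockdown, means of 32.3 ± 10.4 and 12.4 ± 3.44 CPM (SD, n = 2). Both knockdown libraries lay below both controls, a 2.60-fold lower level (log2 change -1.38, SE 0.28, adjusted p = 0.0265). In CPM its controls differed from each other by more than the nearer control did from the nearer knockdown library. The call was lost without knockdown replicate 2 (log2 change -1.12, adjusted p = 0.562), without the filter on low counts (0.155) and when the spread was estimated from all 8 libraries (0.314), and over the 11 alternatives its log2 change ran from -1.69 to -1.02. Gpi1, which turns glucose phosphate into fructose phosphate, had 617 and 717 CPM in the controls against 391 and 342 CPM in the knockdown (log2 change -0.86, SE 0.21), and at an adjusted p of 0.0501 it just missed the threshold. Over the alternatives its adjusted p ran from 0.000635 with the replicate block to 0.916 without knockdown replicate 2, and it also missed without the filter (0.138), in 1 fit of all 8 libraries (0.355) and without knockdown replicate 1 (0.369). Tpi1, which interconverts the products of the sugar's split, had 768 and 702 CPM in the controls against 484 and 300.3 CPM in the knockdown (log2 change -0.91, adjusted p = 0.0858). For both enzymes the 2 groups were clear of each other. Pfkl and Pfkp, of the phosphofructokinases that commit sugar to the pathway, were at log2 changes of -0.73 (adjusted p = 0.105) and -0.74 (0.2), and Aldoa went from 2547 ± 243 to 1598 ± 308 CPM (SD, n = 2). The muscle form Pfkm had 54.6 and 57.3 CPM in the controls against 60.7 and 39.6 CPM in the knockdown, an overlap. Pfkfb4 had the highest value of this group, with 5.42 and 4.99 CPM in the controls against 5.93 and 5.93 CPM in the knockdown (log2 change 0.19, adjusted p = 0.801), and its relative Pfkfb3 overlapped between groups.

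All 6 genes of lower glycolysis, from Gapdh to pyruvate kinase, had both knockdown libraries below both controls, and none passed the test. Pgk1 had 1283 and 1361 CPM in the controls against 866 and 555 CPM in the knockdown (log2 change -0.90, SE 0.25, adjusted p = 0.0962). Knockdown replicate 2 was the lower of its pair. Pgam1, the phosphoglycerate mutase, moved least, with 1450.1 and 1133 CPM in the controls against 1096 and 911 CPM in the knockdown (log2 change -0.36, adjusted p = 0.474). Gapdh had 6139 and 5090.4 CPM in the controls against 4542 and 3443 CPM in the knockdown. Eno1 had 4619 and 4075 CPM in the controls against 3409 and 2447 CPM in the knockdown. The same order held for Pkm and for Eno2, the enolase known from neurons: in all 6 genes replicate 2 of the knockdown was below replicate 1.

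The genes that handle pyruvate were split. Ldha had 2502 and 1996 CPM in the controls against 1554 and 909.5 CPM in the knockdown (log2 change -0.87, SE 0.29, adjusted p = 0.155), with both knockdown libraries below the controls. Slc16a3, the transporter that exports lactate, had 234 and 227 CPM in the controls against 187 and 141 CPM in the knockdown, again without overlap. Ldhb had 157 and 206 CPM in the controls against 239 and 122 CPM in the knockdown (log2 change -0.0094, adjusted p = 0.989): one knockdown library was above both controls and the other below both. Pdk1 and Pdk3, kinases that shut pyruvate out of the mitochondrion, overlapped between groups, Pdk1 at 213 and 277 CPM in the controls against 255 and 219.9 CPM in the knockdown, and Pdk3 at 28.3 and 28.0 CPM against 29.5 and 22.6 CPM.

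Hif1a RNA was not among the lower ones. It had 76.7 and 80.8 CPM in the Usp7 controls and 88.4 and 93.8 CPM in the knockdown (log2 change 0.21, SE 0.18, adjusted p = 0.604), so that both knockdown libraries were slightly above both controls without passing the test. Kdm3a, a histone demethylase induced by low oxygen, had 215 and 201 CPM in the controls against 244 and 251 CPM in the knockdown (log2 change 0.25, adjusted p = 0.544). It was the highest value of this role group, again without overlap. Egln1, the main oxygen-sensing prolyl hydroxylase, had 28.6 and 31.9 CPM in the controls against 18.1 and 17.7 CPM in the knockdown (log2 change -0.76, SE 0.20, adjusted p = 0.0822). Mxi1, a partner of Max that opposes Myc, had 52.4 and 52.6 CPM in the controls against 32.8 and 32.6 CPM in the knockdown (log2 change -0.68, adjusted p = 0.0815). In both genes the replicates of each group were close and the groups apart. Egln3, a prolyl hydroxylase that is itself a Hif1 target, had 35.2 and 61.1 CPM in the controls against 33.1 and 24.9 CPM in the knockdown (log2 change -0.73, adjusted p = 0.2).

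The 8 Hif1 targets had the lowest median of the role groups, -1.02, with all 8 below 0, and 1 of them fell. That median lies between the values of Car9 and Ndrg1, which are uncertain for the reasons given below. Vegfa (ENSMUSG00000023951, chr17:46016993-46032369 on GRCm38) had 59.7 and 94.9 CPM in the controls against 39.4 and 32.6 CPM in the knockdown, means of 77.3 ± 24.8 and 36.0 ± 4.77 CPM (SD, n = 2). Both knockdown libraries lay below both controls, a 2.15-fold lower level (log2 change -1.10, SE 0.24, adjusted p = 0.0356). Its controls differed from each other by more than the nearer control did from the nearer knockdown library. The call was lost without knockdown replicate 1 (log2 change -1.24, adjusted p = 0.0505), without knockdown replicate 2 (-0.97, 0.693), without the filter on low counts (0.175) and with the spread from all 8 libraries (0.405), and over the 11 alternatives the log2 change ran from -1.40 to -0.74. Ankrd37, an ankyrin repeat protein whose promoter stretch is printed above, had the largest change of the 8, with 9.66 and 12.9 CPM in the controls against 5.76 and 3.35 CPM in the knockdown (log2 change -1.31, SE 0.33, adjusted p = 0.0616). Bnip3, a receptor for the removal of mitochondria, had 74.6 and 116 CPM in the controls against 57.4 and 31.3 CPM in the knockdown (log2 change -1.10, SE 0.29, adjusted p = 0.0776). Both genes had no overlap between the 2 groups and replicate 2 of the knockdown at the bottom. For Bnip3 the controls differed from each other by more than the nearer control did from the nearer knockdown library. Ndrg1, a stress-induced gene, had 20.2 and 44.6 CPM in the controls against 14.5 and 18.2 CPM in the knockdown (log2 change -0.98, adjusted p = 0.154), and its controls differed from each other by more than the nearer control did from the knockdown. Car9 rested on 28 and 39 counts in the controls and 20 and 14 in the knockdown (log2 change -1.06, adjusted p = 0.299), too few for a firm value. Bnip3l, a relative of Bnip3, went from 116 ± 10.8 to 88.3 ± 9.52 CPM (SD, n = 2). The collagen prolyl hydroxylases P4ha1 and P4ha2 overlapped between groups, and P4ha1 had the smallest change of the 8, with 47.5 and 56.5 CPM in the controls against 55.5 and 39.5 CPM in the knockdown (log2 change -0.13, adjusted p = 0.812).

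**Figure D3:**
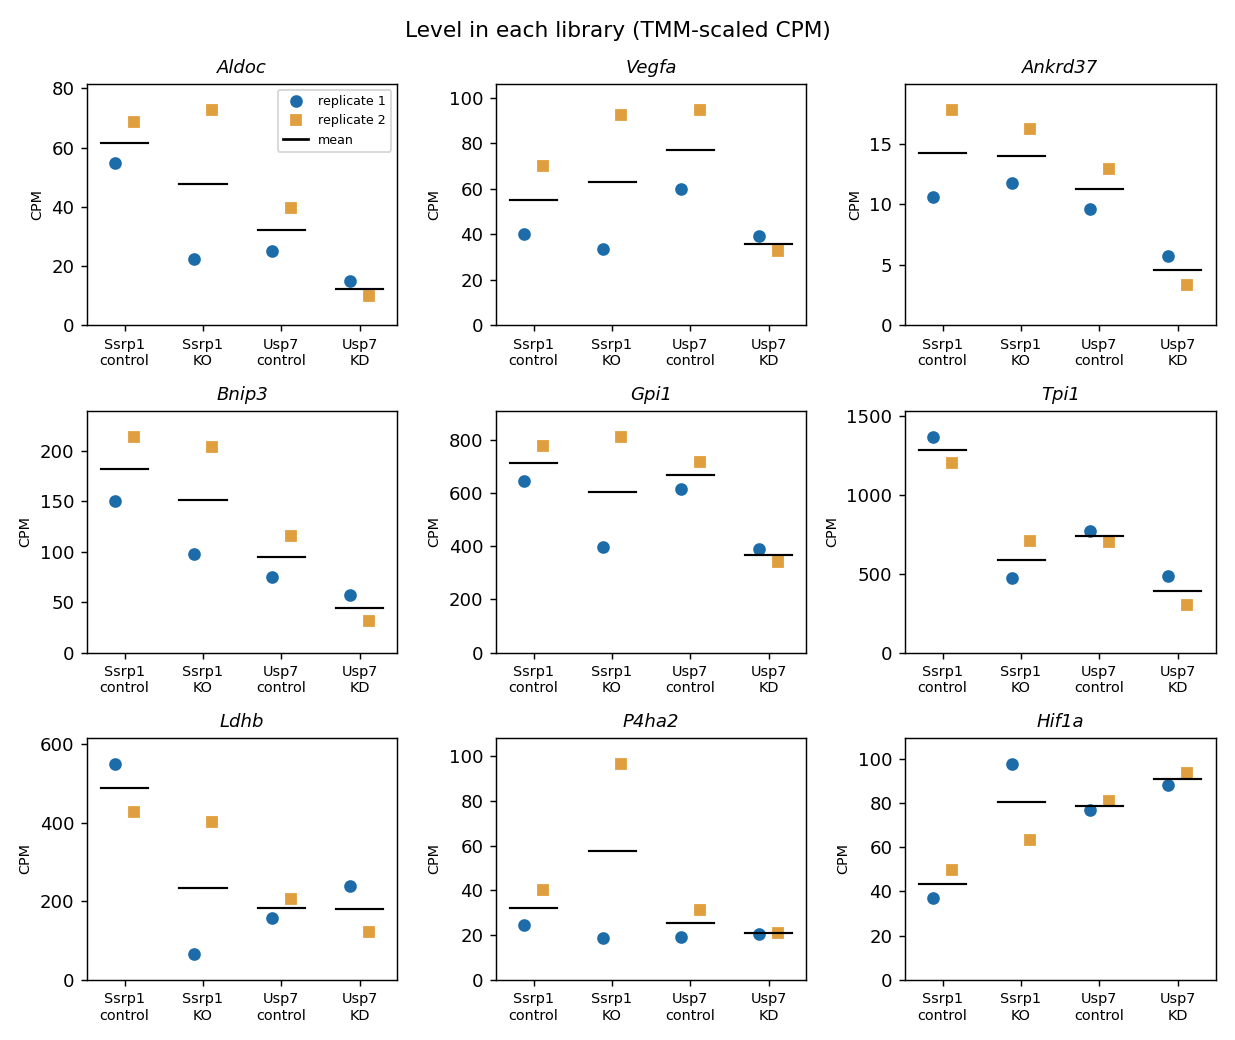
CPM per library for 9 of the genes in the 4 groups; circles are replicate 1, squares replicate 2 and lines the group means. For Aldoc, Vegfa, Ankrd37, Bnip3, Gpi1 and Tpi1 both Usp7 knockdown libraries lie below both controls, Hif1a lies slightly above, and the 2 Ssrp1 knockout libraries lie far apart for Ldhb and P4ha2.

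In the Ssrp1 knockout none of the 37 genes passed the test: edgeR called 0 higher, against 3.39% of the 15757 genes tested, and 0 lower, against 0.324%. At an unadjusted p under 0.05, 6 were lower, against 4.95% of all genes, and 2 higher, against 13.3%, while DESeq2 called Eno1, Gapdh and Tpi1 lower. Log2 changes were below 0 for 22 of 37 genes, against 48.1% of all genes, with a median of -0.17 against 0.031 over all genes and a range from -1.21 to 0.90. Both knockout libraries lay below both controls for 13 genes, against 22.7% of all genes, above both for 5, against 27.3%, and overlapped them for 19. The 15 enzymes from glucose to pyruvate had a median of -0.37, with 12 below 0 and 8 whose knockout libraries lay below both controls, and the 8 Hif1 targets a median of 0.22, with all 8 overlapping.

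All 6 genes of the lower pathway were below 0, with a median of -0.68, and 4 of the 5 genes of lactate and pyruvate, with a median of -0.75. Gapdh had 9016 and 6414 CPM in the controls against 3013 and 4389.5 CPM in the knockout libraries (log2 change -1.06, SE 0.41, adjusted p = 0.189). Eno1 had 7241 and 5593 CPM in the controls against 2107 and 3868 CPM in the knockout (log2 change -1.10, SE 0.42, adjusted p = 0.185). Both knockout libraries were below both controls in each gene, and the library labelled replicate 1 was the lower. Tpi1 (ENSMUSG00000023456) came nearest to the threshold, with 1366 and 1199.7 CPM in the controls against 474 and 703 CPM in the knockout (log2 change -1.12, SE 0.32, adjusted p = 0.0862). Its call appeared without the filter on low counts, with DESeq2, with the spread from all 8 libraries and without knockout replicate 2. Ldha had 3926 and 3306 CPM in the controls against 1688 and 2300.5 CPM in the knockout (log2 change -0.86, adjusted p = 0.23), Pkm had a log2 change of -0.79 (adjusted p = 0.331) and Slc16a3 one of -0.75 (adjusted p = 0.198). None of these groups overlapped. Slc2a1 was the lowest of the glucose entry genes, with 952 and 1289 CPM in the controls against 593 and 833 CPM in the knockout (log2 change -0.65, adjusted p = 0.328). Egln3 had the largest change of all 37, -1.21 (SE 0.44, adjusted p = 0.169), from 30.6 and 83.0 CPM in the controls to 18.9 and 30.0 CPM in the knockout. Its controls were far apart, and the lower of them nearly met the higher knockout library: without control replicate 2 the log2 change was -0.34 and without control replicate 1 -1.78, and its call appeared without knockout replicate 2 (-1.59, adjusted p = 0.00429) and without the filter (0.0123).

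Several values in the knockout rested on 1 of the 2 libraries. Ldhb had 550.0 and 428 CPM in the controls against 65.9 and 402 CPM in the knockout (log2 change -1.06, SE 0.60, adjusted p = 0.39), so the library labelled replicate 1 was far below the rest and replicate 2 close to the controls. Without replicate 2 its log2 change was -2.89 (adjusted p = 1.96e-07). P4ha2 showed the opposite, with 24.4 and 40.2 CPM in the controls against 18.9 and 96.5 CPM in the knockout (log2 change 0.84, adjusted p = 0.497), and without replicate 1 its log2 change was 1.53 (adjusted p = 0.00167). Hk1 had 56.8 and 81.3 CPM in the controls against 43.2 and 142 CPM in the knockout (log2 change 0.43, adjusted p = 0.686): replicate 1 was below both controls and replicate 2 above both. Bnip3 had 151 and 214 CPM in the controls against 98.0 and 204 CPM in the knockout (log2 change -0.27, adjusted p = 0.753), the lowest of the Hif1 targets. Eno2 had 10.0 and 18.4 CPM in the controls against 4.74 and 23.2 CPM in the knockout (log2 change -0.023, adjusted p = 0.99). In both, replicate 1 was below both controls and replicate 2 was well above replicate 1. Pdk1 was the reverse, with 330.0 and 292 CPM in the controls against 445 and 163 CPM in the knockout, replicate 1 above both controls and replicate 2 below both. Pfkfb3 had 11.0 and 33.1 CPM in the controls against 23.5 and 31.9 CPM in the knockout (log2 change 0.33, adjusted p = 0.775), and there the controls were the wider pair. Aldoc, which fell in the knockdown, had 54.8 and 68.5 CPM in the Ssrp1 controls against 22.6 and 72.8 CPM in the knockout (log2 change -0.37, adjusted p = 0.73). Vegfa, which also fell there, had 40.1 and 70.1 CPM against 33.6 and 92.4 CPM (log2 change 0.19, adjusted p = 0.87). In both, the knockout libraries lay on either side of the controls.

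Hif1a had the highest log2 change of the 37 genes in the knockout, with both knockout libraries above both controls and without passing the test. It had 36.8 and 49.7 CPM in the controls against 97.8 and 63.5 CPM in the knockout (log2 change 0.90, SE 0.31, adjusted p = 0.15). With a correction for the trend of each library with GC content and length its log2 change was 0.20 (adjusted p = 0.756), whereas leaving out knockout replicate 2 gave 1.17 (0.0207). Pdk3 had 26.2 and 30.3 CPM in the controls against 45.5 and 51.9 CPM in the knockout (log2 change 0.78, SE 0.29, adjusted p = 0.18), again without overlap.

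For these genes the 2 knockout libraries differed from each other, with 33 of 37 higher in replicate 2 by a median log2 value over the 37 of 0.63. Taking each gene against the mean of its controls, the 37 genes had a median log2 value of -0.74 in the library labelled knockout replicate 1 and 0.15 in replicate 2. In replicate 1, 24 of the 37 were below both controls, against 38.5% of the genes tested, and 7 above both, against 39.4%. In replicate 2, 15 were below both controls, against 36.9%, and 16 above both, against 43.2%. Mitochondrially encoded genes took 7.31% of counts in replicate 1 and 2.81% in replicate 2, against 0.732% and 0.776% in the controls, and the 2-cell-like genes given above were higher in replicate 2; their part was not tested. The median of the members was -0.76 without replicate 2 and 0.089 without replicate 1, so the direction of the knockout result rests on which library is kept. Which members edgeR called also depended on the library kept, and so did the number of calls over all genes. Without replicate 2 the log2 changes were -1.45 for Aldoc, -1.59 for Egln3, -1.59 for Eno2 and -2.89 for Ldhb. Those of Tpi1 and Hif1a were then -1.44 and 1.17, and without replicate 1 that of P4ha2 was 1.53. The knockdown libraries were closer: 26 genes were below both controls in replicate 1, against 32.1% of the genes tested, and 31 in replicate 2, against 35.2%, with medians of -0.49 and -0.67.

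**Figure D4:**
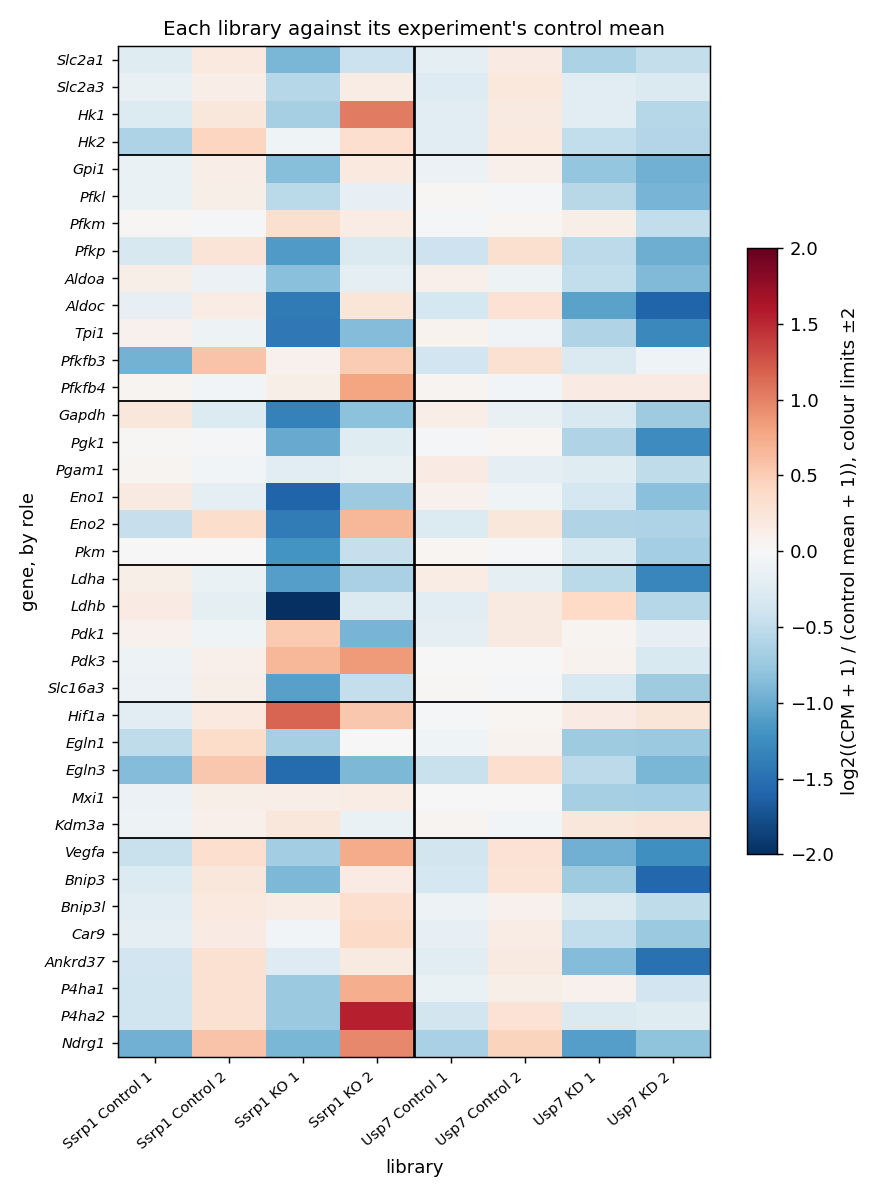
Log2 of the ratio of CPM + 1 to the mean control CPM + 1 of the same experiment, for each gene and library, by role, with colours limited to 2 in either direction. The Usp7 knockdown libraries are below control in most genes, while the library labelled Ssrp1 knockout replicate 1 is low and replicate 2 mixed.

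The Hif1 targets and the genes of glucose entry also varied together within groups. All 8 Hif1 targets were higher in replicate 2 than in replicate 1 in both control groups and in the knockout, by medians of 0.70 in the Ssrp1 controls, 0.50 in the Usp7 controls and 1.24 in the knockout on the log2 scale, while 2 of 8 were in the knockdown (median -0.26). The 4 genes of glucose entry were likewise all higher in replicate 2 in both control groups and in the knockout (medians 0.47, 0.41 and 0.61), and 1 of 4 in the knockdown. The same median over all genes tested was at most 0.063 in size. The gap of 0.50 between the Usp7 controls is a difference of log2(CPM + 1). The median change of -1.02 after knockdown comes from edgeR, which does not add 1 CPM, so the 2 values are on unlike scales. With 1 CPM added and against the Usp7 control mean, the 8 targets ran from -1.11 to 0.092 in knockdown replicate 1. They ran from -1.57 to -0.24 in knockdown replicate 2. The same values were -0.66 to -0.097 in control replicate 1 and 0.091 to 0.45 in control replicate 2. The replicate numbers carry no order.

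A single fit of all 8 libraries tested the change after knockout less the change after knockdown. None of the 37 genes passed (edgeR, 0 higher against 0.61% of the 17052 genes tested, 0 lower against 0.393%, and 0 by DESeq2). At an unadjusted p under 0.05, 3 were higher, against 9.19%, and 0 lower, against 5.95%. These 3 were Pdk3 (log2 difference 0.85, SE 0.33, adjusted p = 0.249), Mxi1 (0.78, SE 0.29, 0.232) and Ankrd37 (1.24, SE 0.53, 0.297). For Vegfa the log2 difference was 1.25 (SE 0.59, adjusted p = 0.351) and for Aldoc 0.96 (SE 0.63, adjusted p = 0.532), so that neither call in the knockdown was shown to be absent from the knockout. The median difference was 0.35 over the 37 genes, 26 of them above 0, and 1.16 over the 8 Hif1 targets, all 8 above 0, against 0.0048 over all genes. Without knockout replicate 2 the median over the 37 genes was -0.12 and Ldhb was called lower (log2 difference -2.97, adjusted p = 0.0056), and without knockout replicate 1 P4ha2 was called higher (1.80, 0.0495).

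Of 86 further genes of these pathways, 79 were tested in the Usp7 knockdown, where 2 fell, against 0.628% of all genes, and 0 rose, against 2.36%. They were the other Hif1 targets, the machinery that makes and destroys Hif1a, further glycolytic isozymes, the pentose phosphate path, the entry of pyruvate into mitochondria and gluconeogenesis. Pck2, the mitochondrial enzyme that makes phosphoenolpyruvate for gluconeogenesis, had 51.4 and 56.4 CPM in the controls against 20.8 and 21.2 CPM in the knockdown, 2.56-fold lower (log2 change -1.36, SE 0.19, adjusted p = 0.00425). Bhlhe40, a transcriptional repressor induced by low oxygen, differed more between its controls than between the nearer control and the knockdown. It had 50.4 and 101 CPM in the controls against 27.8 and 29.0 CPM in the knockdown (log2 change -1.41, SE 0.29, adjusted p = 0.0256). In both, the knockdown libraries were nearly equal and below both controls, and both calls were lost without knockdown replicate 2 (adjusted p = 0.246 and 0.415), that of Bhlhe40 also without the filter and with the spread from all 8 libraries (0.16 and 0.538). The median of the 79 was -0.19, with 17 lower and 5 higher at an unadjusted p under 0.05, against 7.18% and 9.52% of all genes. Among them the 27 tested of 28 other Hif1 targets had a median of -0.46, with 20 below 0 and 11 lower at that threshold, whereas the 11 genes of the Hif1a machinery had a median of -0.12 and none at that threshold.

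In the Ssrp1 knockout 78 of the 86 genes were tested, 1 rose, against 3.39% of all genes, and 0 fell, against 0.324%. At an unadjusted p under 0.05, 9 were higher, against 13.3% of all genes, and 6 lower, against 4.95%. Eloc, the elongin C that joins the ligase marking Hif1a for destruction, had 39.0 and 34.0 CPM in the controls against 127 and 93.8 CPM in the knockout (log2 change 1.59, SE 0.29, adjusted p = 0.0173). Both knockout libraries were far above both controls. The correction for GC content and length took its log2 change to 0.50 (adjusted p = 0.406), and the call was also lost without control replicate 1 (0.145) and without control replicate 2 (0.0638). Eloc was also the gene of the 86 whose change differed between the experiments (log2 difference 1.81, SE 0.37, adjusted p = 0.0489), a call lost with RLE size factors (0.0549), with the correction for GC content and length (0.364) and on leaving out any 1 library other than knockout replicate 2 (0.0529 to 0.333).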

How the data were processed

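RNA-seq of 8 libraries was used, in 4 groups of 2 taken from the sample titles. Raw read counts by gene, in 1 table per experiment, were deposited by the authors; per the submitters' processing notes, cutadapt, HISAT2 and featureCounts were used on mm10. The sources used here give no versions, annotation release, strand setting or rule for reads with several matches, so overlapping and antisense genes may share counts. The 92 spike-in sequences had 0 counts and were left out.

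Each experiment was fitted on its own with edgeR 4.0.16 (R 4.3.3): default filterByExpr, TMM scaling and the quasi-likelihood F test, with Benjamini-Hochberg adjustment over all genes tested and a call at an adjusted p under 0.05. Standard errors come from the log2 change and the F statistic. CPM values use TMM-scaled totals, and TPM values exon lengths from the GENCODE annotation, in which 67 identifiers had no symbol. One symbol, Aldoa, had a second, short identifier, and the longer model was used. Copies are genes matching at least 300 bases at 90% identity or more. Replicates differed by far more than sampling noise.

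Full values are given for members called in either experiment and, for each role, the members with the largest and smallest change at a mean of at least 5 CPM; other members named with a log2 change, and the sequences, were chosen after their values were seen. The members and lists were chosen with earlier results of these data known. Alternatives were RLE size factors, no mitochondrially encoded genes, no filter, a replicate block, a GC and length correction (lowess span 0.3, prior count 2), DESeq2 1.42.0, 1 fit of all 8 libraries, and each library left out. Tested on simulated data with known changes, the edgeR step recovered 11% of genes at a log2 change of 1 and 67% at 2 for the Ssrp1 experiment (15757 genes), and 58% and 95% for the Usp7 experiment (15915 genes). It called 6 and 1 unchanged genes. The simulated spread depended only on a gene's level, with no spread of its own per gene and no shift shared by genes within a library. Recovery in the real libraries may therefore differ.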

Additional observations from a re-analysis of the deposited data

How the results depend on the processing

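Leaving out a library leaves a lone sample that is assumed to vary like the others. In the Usp7 knockdown the number of members called lower was 2, and 0 without the filter, 10 with the GC and length correction, 12 with DESeq2, 0 with 1 fit of all 8 libraries and 0 to 14 with 1 library left out. The median of the members was -0.55, and -0.69 to -0.38 with 1 library left out. In the Ssrp1 knockout 0 were called higher and 0 lower. The number called lower was 6 without the filter, 3 with DESeq2 and 1 with 1 fit of all 8 libraries. Both counts moved with 1 library left out, as did the calls over all genes. The median of -0.17 ran from -0.76 to 0.089. For the difference between experiments, 0 members were called in either direction, and 0 to 1 in each with 1 library left out, with medians from -0.12 to 0.58.

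With the replicate number as a block, 15 members were called lower in the knockdown and 0 in the knockout. The deviations of same-numbered libraries from their group means correlated at 0.18 in the Ssrp1 and 0.12 in the Usp7 experiment. With 2 libraries per group the 2 pairs of an experiment mirror each other, so each value rests on 1 independent pair. Nothing in the labels says that a number marks a shared culture or day. Over all genes the block gave 844 higher and 144 lower calls in the knockout against 534 and 51, and 964 and 507 in the knockdown against 376 and 100. Without the filter these counts were 1238 and 259 in the knockout and 95 and 5 in the knockdown, with DESeq2 888 and 212 and 456 and 206, with the GC and length correction 281 and 64 and 607 and 224, and with 1 fit of all 8 libraries 1042 and 272 and 74 and 4.

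The sign of a log2 change turned under some alternatives, in each case where no call had been made. With the GC and length correction Eno2 in the knockout was at 0.079 and Ldhb in the knockdown at 0.092. With 1 library left out, values in the knockout ran from -1.45 to 0.18 for Aldoc, -0.90 to 0.11 for Bnip3, -1.59 to 0.65 for Eno2, -0.68 to 0.99 for Hk1, -0.78 to 1.53 for P4ha2 and -0.72 to 0.69 for Vegfa, in each case lowest without knockout replicate 2 and highest without knockout replicate 1. Pfkfb3 ran from -0.28 without control replicate 1 to 1.32 without control replicate 2. In the knockdown Ldhb ran from -0.57 to 0.39 and P4ha1 from -0.40 to 0.092, and the Aldoc difference between experiments from -0.15 to 1.55. The cause was not tested. Over the single genes compared, 464 values kept their direction and side of the threshold, 66 gained a call, 23 lost one and 15 turned.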
